A study of Solanum lycopersicum with 9 samples.

Results

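Ethylene response factors (ERFs) are plant transcription factors that share a DNA-binding domain of the AP2 type. The 7 members described here are the ERF genes ERF2, ERF3, ERF4 and ERF-H1 and the PTI genes PTI4, PTI5 and PTI6. They were taken by whole gene symbol from the array's annotation, and they are represented by 8 probe sets of the 10038 tested and by 7 of the 802 genes that carried a symbol. ERF3 had 2 probe sets and each other gene had 1. By Entrez identifier all 7 were found in RefSeq's table for assembly SLM_r2.1, whose synonyms place them in different ERF subgroups (PTI4 as Sl-ERF-A3, ERF4 as Sl-ERF.B3, PTI5 as SlERF-C6, ERF2 as SlERF-E1, ERF3 as SlERF-F5, PTI6 as SlERF-G2 and ERF-H1 as SlERF-H1).

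RNA came from the mesocarp of red ripe fruit of the tomato cultivar Money Maker (Solanum lycopersicum), and 9 arrays each measured 1 pool. Wild-type plants (WT) gave 3 pools, and plants of lines AS5 and AS17, in which an antisense construct silences Asr1, gave 3 pools each. Asr1 encodes a small protein named for abscisic acid, stress and ripening. Plants grew in a greenhouse without a further treatment. The labels do not name the promoter of the construct. No probe set here carries the name Asr1, so the silencing itself was not checked on these arrays. Each line is 1 transformed line, and n counts pools of fruit, so p-values measure the spread between pools.

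Ethylene drives ripening in tomato. Its receptors restrain signalling through CTR kinases, and once ethylene binds, EIN2 and the EIN3-like (EIL) factors switch on ERF genes, whose products act on the promoters of ripening and defence genes, often at a short element called the GCC box. PTI4, PTI5 and PTI6 were found as partners of Pto, the kinase that gives tomato resistance to bacterial speck, and bind the GCC box of pathogenesis-related genes. ERF3 belongs to a subgroup known for repressors that carry an EAR motif.

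Values are deposited log2 expression values, so a difference of 1 is a doubling. A background level was set on each array as the 95th percentile of 63 control probe sets for reporter genes. In WT it ranged from 1.41 to 1.56 and in the silenced lines from 1.57 to 1.98, so it was not the same in the groups compared, and its part in the values of dim probe sets was not tested. The ripe fruit markers found on the array (5 of 10 listed: ACS2, E8, EXP1, PG2 and Psy1) were above background in all 9 arrays. Of the 3 seed markers found, MAN1 and MAN2 were above background in none, and GluB, which is also in the defence list, was above it in 8 of 9, at 3.09 to 4.61 in WT, 2.73 to 3.73 in AS5 and 1.70 to 3.84 in AS17.

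AS5 pool 3 and AS17 pool 1 stood apart from the other 7 arrays. On the first principal component, which held 40.0% of the variance, they scored 33.4 and 34.96, and the others from -27.2 to 12.5. The difference between 3′ and 5′ signal of the gapdh control gene was 0.62 and 0.55 in them and 0.83 to 1.06 in the others, and that of ubiquitin 1.12 and 1.36 against 1.41 to 1.75. For actin it was 0.48 in AS5 pool 3 but 1.08 in AS17 pool 1, within the 0.73 to 1.10 of the others. The summed signal of 3 photosynthetic markers (CAB4, CAB5 and LOC543978, on the log2 scale) was 6.68 and 6.79 in them, 5.74 to 6.29 in the 3 WT pools and 6.70 in AS17 pool 3. The 3 epidermis markers found (LE16, ltpg1 and TSW12, the last above background in 0 of 9 arrays) summed to 6.91 in AS5 pool 3 and 5.0 in AS17 pool 1, against 5.02 to 5.39 in WT and 6.57 in AS17 pool 3. Changes of the ERF and PTI genes against WT are therefore given with and without these pools. Those of the pathway lists are given with all arrays only.

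Between silenced and WT fruit, 0 of the 8 probe sets passed in any comparison with all arrays in the fit (limma, Benjamini-Hochberg adjusted p under 0.05 over all probe sets). ERF4, which had the smallest adjusted p of the 8 in both lines, was lower in 5 of the 6 silenced pools than in every WT pool. The share of all probe sets with such a pattern was not counted, so how unusual it is cannot be said. By another rule, all 6 silenced pools above or all below WT, the share was 9.06%, and ERF4 did not meet that rule. ERF4 passed once AS5 pool 3, the contrary pool, was left out. PTI5, PTI6 and ERF3 were higher in AS5 pool 3 and AS17 pool 1 than in the other 7 pools, whichever line those came from. So were 11.3% of all probe sets. For PTI6, AS5 pool 3 was only 0.08 above the highest of the other 7. ERF2, ERF-H1 and PTI4 had changes against WT of 0.42 or less in size with all arrays. Without AS5 pool 3 and AS17 pool 1, PTI4 was at 0.67 in AS17 (limma adjusted p = 0.192). In whole tissue, less RNA per cell and fewer cells that express a gene cannot be told apart.

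**Figure D1:**
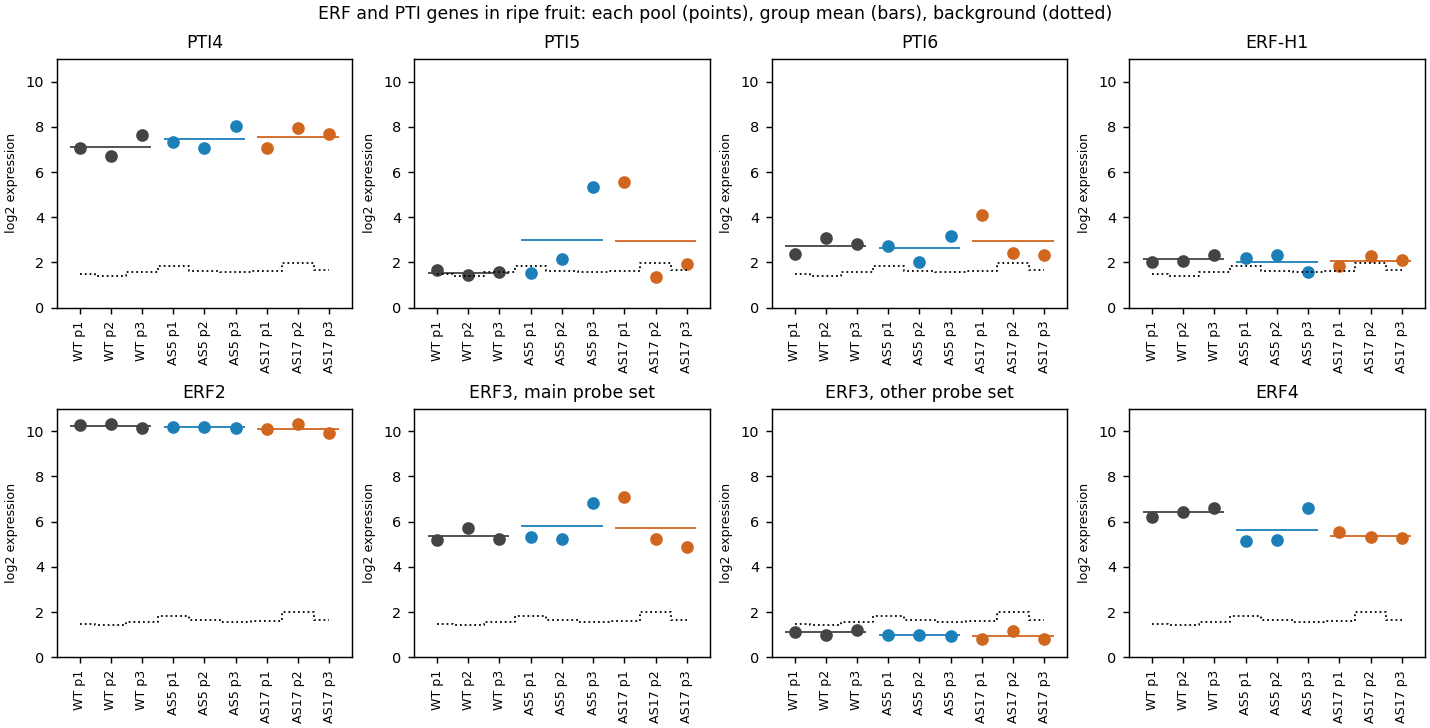
Log2 expression of each probe set (vertical axis) in each of the 9 pools (horizontal axis, p for pool); points are pools, bars are group means of 3 pools and the dotted line is the background level of each array. ERF4 is below all WT pools in 5 of 6 silenced pools, a pattern whose share over all probe sets was not counted. PTI5 is far above background only in AS5 pool 3 and AS17 pool 1.

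Across all probe sets, 0.379% passed in AS5 against WT, 1.34% in AS17 against WT and 1.28% for the mean of both lines against WT. With shares that low, 0 of 8 does not set the ERF and PTI genes apart from the rest of the array. The adjusted p of the 8 ran from 0.569 to 0.966 in AS5, from 0.188 to 0.916 in AS17 and from 0.215 to 0.978 for the mean of both lines. At an unadjusted p under 0.05 there were 0, 1 and 1 of 8, the 1 being ERF4, beside 928, 1737 and 1554 of all 10038, so 1 of 8 is near what the whole array showed. Counting the ERF3 probe set at background, changes were positive for 4 of 8 and negative for 4 of 8 for the mean of both lines, with a median of -0.02, beside 0.00 over all probe sets.

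ERF4 (LeERF4) was at 6.18, 6.44 and 6.60 in WT pools 1, 2 and 3. In AS5 it was at 5.13, 5.17 and 6.62, and in AS17 at 5.53, 5.33 and 5.28. Pool 3 of AS5 thus reached the top of the WT range, while the other 5 silenced pools, at 5.13 to 5.53, were all at least 0.66 below the lowest WT pool.

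The mean of ERF4 was 6.41 ± 0.21 (SD, n = 3) in WT, 5.64 ± 0.85 in AS5 and 5.38 ± 0.13 in AS17. AS17 was 2.04-fold below WT, a log2 change of -1.03 (SE 0.36, 95% confidence interval -1.84 to -0.22) that did not pass (adjusted p = 0.188). In AS5 the change was -0.77 (SE 0.36, interval -1.58 to 0.04, adjusted p = 0.569). For the mean of both lines it was -0.90 (SE 0.31, interval -1.60 to -0.20, adjusted p = 0.215). Intervals are per gene and not adjusted for the number of genes.

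The pools of AS17 and WT did not overlap for ERF4, the 1 such case among the 8 probe sets, where 21.6% of all probe sets showed no overlap. Between AS5 and WT, 0 of 8 were without overlap (16.9% of all), and between the 6 silenced pools and WT also 0 of 8 (9.06% of all). Absence of overlap was therefore not unusual on these arrays.

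Without AS5 pool 3, ERF4 fell by 1.26 in AS5 (SE 0.15, adjusted p = 0.0165), by 1.03 in AS17 (SE 0.14, adjusted p = 0.0166) and by 1.15 for the mean of both lines (SE 0.12, adjusted p = 0.00501). In those fits 0.289%, 1.03% and 0.737% of all probe sets passed as lower. The change in AS17 is the same with and without that pool, so there it is the estimate of the spread that differs, with an SE of 0.36 against 0.14. Without both outlying pools the values were -1.26, -1.10 and -1.18 (adjusted p = 0.0181, 0.0165 and 0.00657). AS5 pool 3 is the silenced pool that went against the others in ERF4, so leaving it out favours a difference. In the other 8 fits with 1 array left out, ERF4 did not pass, with adjusted p from 0.193 to 0.383 in AS17 and from 0.499 to 0.891 in AS5.

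**Figure D2:**
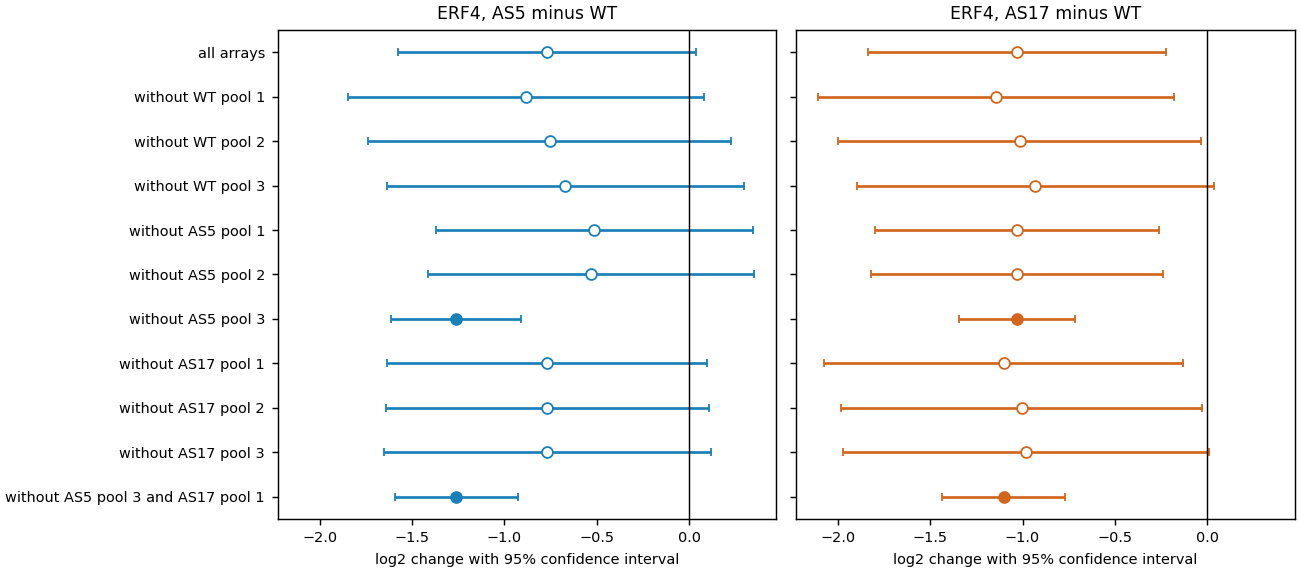
Log2 change of ERF4 against WT (horizontal axis) in AS5 (left) and AS17 (right) with all arrays and with arrays left out (rows); bars are limma 95% confidence intervals and filled points passed at adjusted p under 0.05. Only fits without AS5 pool 3 have filled points, at -1.26 in AS5 and at -1.03 and -1.10 in AS17.

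PTI4 is the neighbour of ERF4 in the RefSeq gene order, with 1 annotated gene between them. PTI4, a factor that Pto phosphorylates, was at 7.04, 6.73 and 7.62 in WT, at 7.32, 7.06 and 8.03 in AS5 and at 7.05, 7.93 and 7.67 in AS17. The 3 groups overlapped. AS5 pool 3 was the highest of its line and AS17 pool 1 the lowest of its own. The change was 0.34 in AS5 (SE 0.33, interval -0.40 to 1.08, adjusted p = 0.817) and 0.42 in AS17 (SE 0.33, interval -0.32 to 1.16, adjusted p = 0.567). Without both outlying pools it was 0.06 in AS5 and 0.67 in AS17 (adjusted p = 0.95 and 0.192). PTI4 and ERF4 had changes of opposite sign in both lines, a difference between them that was not tested.

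PTI5, a GCC-box factor of the defence response, was close to background in WT, at 1.65, 1.42 and 1.58, or 0.16, 0.01 and 0.02 above the level of each array. In AS5 it was at 1.52, 2.16 and 5.34, and in AS17 at 5.56, 1.37 and 1.95. AS5 pool 3 and AS17 pool 1 were 3.77 and 3.96 above their background levels. In the other 7 arrays PTI5 lay between 1.37 and 2.16, at or below background in 2 of them, AS5 pool 1 and AS17 pool 2.

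Each line thus had 1 pool with PTI5 and 2 pools at or near background. The change against WT was 1.46 in AS5 (SE 1.19, interval -1.24 to 4.16, adjusted p = 0.779) and 1.41 in AS17 (SE 1.19, interval -1.29 to 4.11, adjusted p = 0.597). The standard deviation was 2.05 in AS5 and 2.27 in AS17, against 0.11 in WT. Without both outlying pools the changes were 0.29 and 0.11 (SE 0.24 each, adjusted p = 0.671 and 0.829), so both rest on those pools.

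PTI6, which also carries the name SlCRF1 of a cytokinin response factor, had low values, at 2.36, 3.07 and 2.81 in WT. It was at 2.72, 2.02 and 3.15 in AS5 and at 4.08, 2.43 and 2.32 in AS17, above background in 9 of 9 arrays. AS17 pool 1 was well above the other pools, while AS5 pool 3 was only 0.08 above the highest of the other 7. The change was -0.12 in AS5 and 0.20 in AS17 (SE 0.47 each, adjusted p = 0.966 and 0.881), and without both outlying pools it was -0.38 and -0.37 (adjusted p = 0.615 and 0.455).

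ERF3 (LeERF3b) was measured by 2 probe sets that disagreed. The main one was above background in 9 of 9 arrays and the other in 0 of 9, between 0.81 and 1.21, so differences in the latter are not read as changes of ERF3. By the main probe set ERF3 was at 5.19, 5.70 and 5.22 in WT, at 5.30, 5.23 and 6.82 in AS5 and at 7.08, 5.24 and 4.86 in AS17. AS5 pool 3 was 2.88-fold and AS17 pool 1 3.57-fold above the higher of the other pools of its line. Both were at least 1.12 above the other 7 arrays, which spanned 4.86 to 5.70.

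The change of ERF3 was 0.41 in AS5 and 0.35 in AS17 (SE 0.60 each, adjusted p = 0.882 and 0.818). Without both outlying pools it was -0.11 and -0.32 (SE 0.19 each, adjusted p = 0.877 and 0.384), so its sign turned with their removal.

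ERF2, the LeERF2 gene known from ripening fruit and germinating seed, varied little. It was at 10.26, 10.33 and 10.16 in WT, at 10.19, 10.19 and 10.13 in AS5 and at 10.09, 10.31 and 9.93 in AS17. Its change was -0.09 in AS5 (interval -0.36 to 0.19, adjusted p = 0.879) and -0.14 in AS17 (interval -0.42 to 0.13, adjusted p = 0.595). A fall of more than 0.42 or a rise of more than 0.19 in either line lies outside these intervals. The spread over all 9 pools was 0.40. Without both outlying pools the change was -0.07 in AS5 and -0.14 in AS17 (limma adjusted p = 0.9 and 0.624).

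ERF-H1, listed with the synonym ERF1, was near background. It was at 2.01, 2.07 and 2.32 in WT, at 2.19, 2.32 and 1.58 in AS5 and at 1.85, 2.27 and 2.10 in AS17, from 0.01 to 0.76 above the level of each array. Both outlying pools were below the other 7 arrays, at 1.58 and 1.85 against 2.01 or more. The change was -0.10 in AS5 and -0.06 in AS17 (SE 0.21 each, adjusted p = 0.915 and 0.916), and without both pools 0.12 and 0.05 (adjusted p = 0.776 and 0.867).

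**Figure D3:**
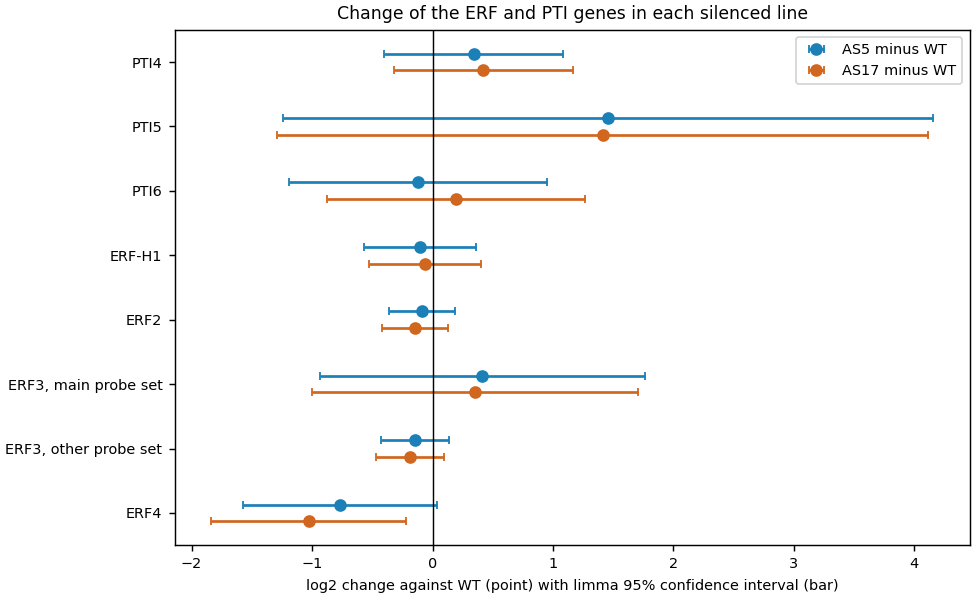
Log2 change of each probe set against WT (horizontal axis) in AS5 and AS17, with points for limma estimates and bars for 95% confidence intervals. The interval of ERF4 in AS17 lies below 0 and that in AS5 reaches 0.04; that of PTI5 in AS5 runs from -1.24 to 4.16. The other probe set of ERF3 is drawn although it was at or below background in all 9 arrays.

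In AS5 pool 3 and AS17 pool 1, 3 of the 8 probe sets (PTI5, PTI6 and the main one of ERF3) were above all other 7 arrays, where 11.3% of all probe sets were. ERF-H1 was 1 of 8 below all of them, where 8.41% of all probe sets were. The pair was singled out on all probe sets with values of these genes already known, so these counts are a description and were not tested. The part of the control gene and marker values given above in the levels of these genes was not tested. ERF4 did not follow the pair: it was at 6.62 in AS5 pool 3 and at 5.53 in AS17 pool 1.

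Lines AS17 and AS5 were also compared directly. For this contrast 0 of the 8 probe sets passed, as did 0% of all probe sets in limma, where 591 of 10038 had an unadjusted p under 0.05 and none of the 8 did. The differences (AS17 minus AS5) were -0.26 for ERF4 (interval -1.07 to 0.55, adjusted p = 0.963), -0.05 for PTI5 (interval -2.75 to 2.65) and 0.08 for PTI4 (interval -0.66 to 0.82). Wide intervals such as that of PTI5 leave large differences between the lines possible. Pools of the lines overlapped in all 8 probe sets, where 8.26% of all probe sets had no overlap.

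Genes up and down the ethylene pathway were examined by lists, with 1 probe set per gene. Of 13 ethylene synthesis genes, 0 passed in any of the 4 comparisons. The median change for the mean of both lines was 0.10, beside 0.00 over all probe sets. That median is the value of ACS7, which was below background in every array, as were ACS1A, ACS3, ACS5 and ACS8. ACO6, an ethylene-forming oxidase, had a change of 1.36 (SE 0.30, adjusted p = 0.081), and ACS2, the ripening ACC synthase, of 1.10 (SE 0.30, adjusted p = 0.131). SAM3, which makes the precursor S-adenosylmethionine, had a change of 0.79 (SE 0.29, adjusted p = 0.24).

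Among ethylene receptors and CTR kinases, 0 of 10 genes passed, with a median change of -0.08 for the mean of both lines. In AS17 all 10 had a negative change against WT, from -0.50 to -0.01 (median -0.17, beside -0.02 over all probe sets), the smallest adjusted p being 0.112. In AS5, 5 of the 10 had a positive change. The share of all probe sets with a negative change in AS17 was not counted, so the 10 are not read as a fall of the group. Median centring moved the median over all probe sets to 0.04, so the sign of the smallest changes depends on the scaling. CTR4, a kinase that restrains signalling, was at -0.26 (SE 0.08, adjusted p = 0.184) for the mean of both lines, and its relative TCTR2 at -0.23 (SE 0.10, adjusted p = 0.334), with -0.01 in AS5 and -0.44 in AS17. LOC544279, whose synonym ETR3 marks it as the Never-ripe receptor, was at -0.33 (SE 0.15, adjusted p = 0.336). Of EIN2 and the EIL factors directly upstream of ERF genes, 0 of 5 passed, with changes between -0.11 and 0.04. PTI1, a kinase that Pto phosphorylates and the 1 gene found of the Pto list, was at -0.21 (SE 0.13, adjusted p = 0.499).

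Of 8 other AP2 or ERF type genes, 0 passed (median -0.04). LOC606712, listed with the synonym TERF1, fell short of the threshold at -1.19 (SE 0.38, adjusted p = 0.185): it was at 4.82, 5.26 and 5.40 in WT, at 4.62, 4.10 and 4.36 in AS5 and at 4.77, 2.97 and 3.01 in AS17. Every silenced pool was thus below every WT pool, where 9.06% of all probe sets had no overlap between these groups in either direction. CBF1, a cold-response factor, was at 0.56 (SE 0.40, adjusted p = 0.554), with -0.08 in AS5, 1.2 in AS17 and its highest level, 4.26, in AS17 pool 2. EREB (synonym TSRF1) was above background in 0 of 9 arrays.

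Downstream, 11 genes for defence proteins of kinds that often carry a GCC box were found. For the mean of both lines 1 of 11 fell, 0 rose and 10 did not pass, where 1.28% of all probe sets passed. The median change was 0.39, beside 0.00 over all probe sets of the array. With every probe set of these genes counted it was 0.22. The median of 0.39 is the value of PR1b1, which was above background only in AS5 pool 3, an outlying pool. It is therefore not read as a rise of these genes. The 1 that fell was NP24-I, an osmotin-type protein, by 1.64 (SE 0.14, adjusted p = 0.000817), to 10.66 ± 0.17 in AS5 and 9.85 ± 0.24 in AS17 from 11.89 ± 0.15 in WT. CHI3, a chitinase, was at 6.61, 3.83 and 6.71 in WT, 6.91, 8.60 and 9.77 in AS5 and 8.76, 5.33 and 7.78 in AS17. In the outlying pools 3 of the 11 (CHI3, PR1b1 and TSI-1) were above all other arrays, though PR1b1 was below background in AS17 pool 1, at 1.46. So were 11.3% of all probe sets, and in the other lists 4 of 14 jasmonate and wound genes, 2 of 13 synthesis genes, 2 of 8 other AP2 or ERF type genes, 1 of 10 receptor and CTR genes, and 0 of the ripening, EIN2 and EIL, and Pto genes.

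Of 14 jasmonate and wound genes, 1 fell in AS17, where 1.34% of all probe sets passed. It was the lipoxygenase gene TomloxE (-2.11, SE 0.39, adjusted p = 0.0423), which did not pass in AS5 (-1.10, SE 0.39, adjusted p = 0.429) or for the mean of both lines (-1.61, SE 0.34, adjusted p = 0.0685). None of 10 ripening markers passed in limma in the 4 comparisons by the probe set with the highest mean. Another probe set of Psy1 passed as higher for the mean of both lines (change 3.82, limma adjusted p = 0.0421), while its main probe set was at -0.09. That other probe set passed in neither line alone, and its level against background is not given here. E8, an ethylene-responsive fruit gene, had a change of 0.24 (SE 0.11, adjusted p = 0.336), the pectinesterase gene PE1 of 0.37 (SE 0.18, adjusted p = 0.374) and the cellulase gene Cel2 of 0.94 (SE 0.42, adjusted p = 0.323). The mean describes neither line for Cel2, which had a change of 0.05 in AS5 and 1.84 in AS17 (SE 0.48 each, adjusted p = 0.99 and 0.107), and the difference between the lines did not pass (adjusted p = 0.764).

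**Figure D4:**
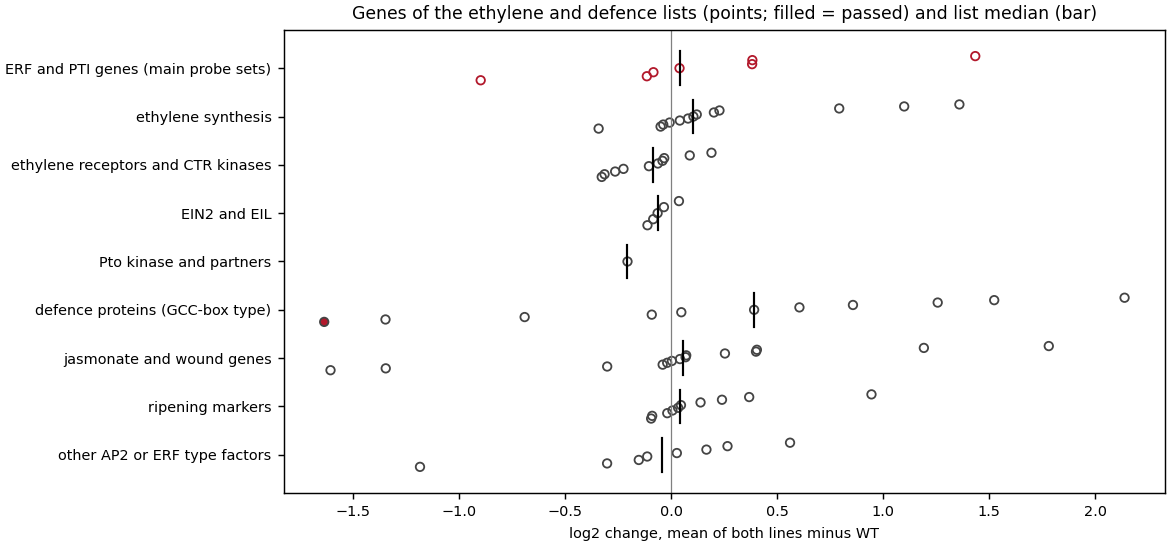
Log2 change against WT of the 2 lines averaged (horizontal axis) for each gene in the ERF and PTI group and in 8 pathway lists (rows); points are genes, bars are list medians and the filled point passed. ERF4 at -0.90 and PTI5 at 1.43 are the outermost of the 7 genes, and NP24-I at -1.64 is the point that passed.

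For members whose range over the 9 arrays exceeded 1.5, the 3 named genes with the most similar profile were found among 801 others, by the root mean square difference of values centred on each gene's own mean. For PTI5 they were Xegip, an inhibitor of xyloglucan-degrading enzymes, at 0.31, TSI-1, a stress-induced protein, at 0.36, and adc1 at 0.62. Xegip was at 4.58 in AS5 pool 3 and 5.76 in AS17 pool 1, and TSI-1 at 5.04 and 3.92. In all other arrays both were below background. The nearest genes of each member were chosen for likeness over these same arrays. High or low pools shared with a member therefore follow from the choice and are not a separate result. For ERF3 they were CELLULASE at 0.15, LOC543699 at 0.29 and VDE, the violaxanthin de-epoxidase gene, at 0.30, high in that pair by the same choice.

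For PTI6 the nearest were GPA1, a G protein alpha subunit, at 0.31, WRKYIId, a WRKY transcription factor, at 0.32 and LOC543942 at 0.34. ERF4 had a range of 1.497, just short of the limit of 1.5, and was added after its values were seen. Its nearest profiles were those of copz1, a coatomer subunit, at 0.28, LOC543709 at 0.33 and SDH at 0.34. By this choice copz1, like ERF4, was higher in AS5 pool 3 (6.18) than in the other silenced pools (5.10 to 5.61).

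**Figure D5:**
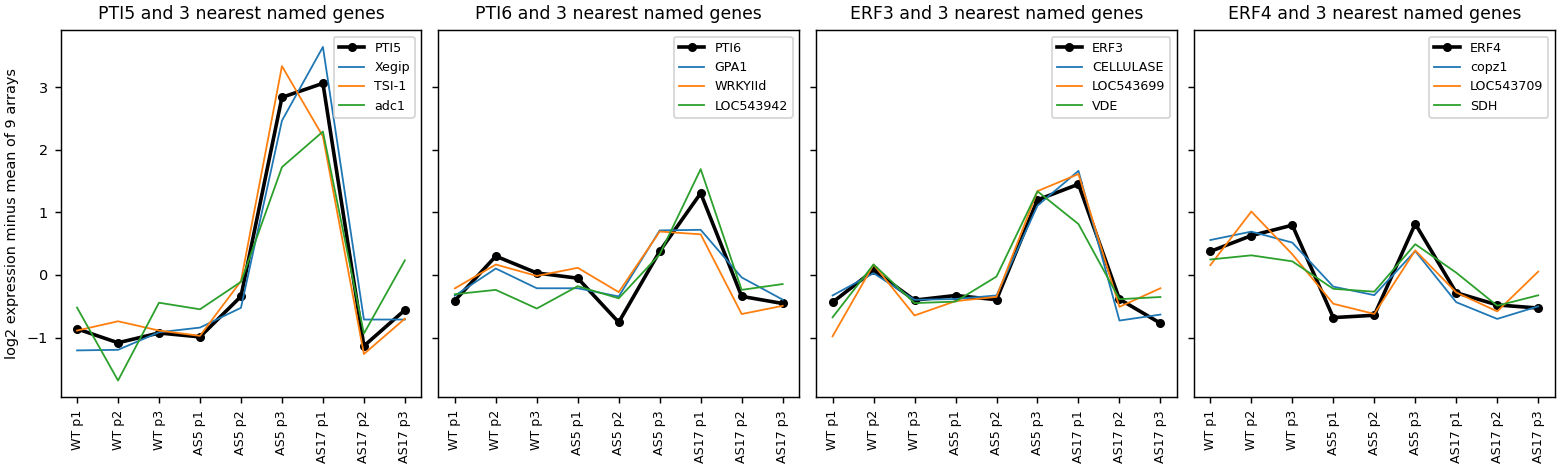
Log2 expression minus the mean of the 9 arrays (vertical axis) in each pool (horizontal axis, p for pool) for PTI5, PTI6, ERF3 and ERF4 (thick lines) and the 3 named genes nearest to each (thin lines). PTI5 and ERF3 with their nearest genes peak in AS5 pool 3 and AS17 pool 1, while ERF4 and its nearest genes are lower in silenced pools other than AS5 pool 3. The nearest genes were chosen for likeness over these 9 arrays, so the shared shapes follow from the choice.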

How the data were processed

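RNA of 9 fruit pools was measured on 1 array each, in 3 groups of 3 (WT, AS5, AS17) taken from the labels. The authors deposited 1 value, on the log2 scale, for each probe set in each array. The submitters' processing notes name RMA, with no version or settings. No further scaling was applied. Of 10209 probe sets, 171 controls were set aside, which left 10038. The deposited log2 values carry no detection calls. Precision is limited by the number of arrays. Probe sets were named through the array's annotation, in which 909 had 1 symbol, 0 several and 9129 none. List genes were matched by whole symbol or RefSeq synonym, without members, with the probe set of the highest mean.

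Tests used limma (version 3.58.1, R 4.3.3) over all 10038 probe sets, with 1 mean per group and Benjamini-Hochberg adjustment within a contrast. The code was tested on simulated data. All 7 members are named; list genes are named if they passed in a contrast, otherwise up to 3 with the smallest p. A few others (PR1b1, TSI-1, CHI3, copz1 values) were chosen after values were seen. Members, lists and alternatives were chosen with earlier results of these data known. Alternatives covered scaling, dim probe sets, variance models, 2-group fits, pool number as a block, threshold and arrays left out. Figures used matplotlib 3.10.9 in Python 3.11.15.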

Additional observations from a re-analysis of the deposited data

How the results depend on the processing

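The count of ERF and PTI probe sets that passed was 0 in each contrast with all arrays. It was 1 (ERF4, lower) in AS5, in AS17 and for the mean of both lines when AS5 pool 3 and AS17 pool 1 were left out together, and between 0 and 1 over the 9 fits without 1 array. Median centring, quantile normalisation, dropping dim probe sets, variance trend, robust variances, 2-group fits and an adjusted p under 0.10 left it at 0; the ERF4 change in AS17 had an adjusted p = 0.0502 in the 2-group fit. The 7 other probe sets passed in 0 alternatives, with 0.192 as their smallest adjusted p.

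Deviations from the group mean correlated at r over 0.1 in 2 of 9 same-numbered pairs of pools from different groups. In those pairs r ran from -0.38 to 0.55, and in differently numbered pairs from -0.68 to 0.56. Pools of the same number were therefore not taken as pairs. With pool number as a block the count was 0 in each contrast. The count over all probe sets went from 135 to 74 in AS17 and from 128 to 78 for the mean of both lines.

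Signs of small changes that did not pass turned in these cases. Without both outlying pools, ERF-H1 was at 0.120, 0.0494 and 0.0849 and ERF3 at -0.11, -0.32 and -0.22 in AS5, AS17 and their mean, PTI6 at -0.37 in AS17 and -0.38 for the mean, and for AS17 minus AS5 ERF-H1 was at -0.0709 and ERF4 at 0.16. Median centring gave AS17 minus AS5 values of 0.0428 for PTI5, 0.0295 for ERF2, 0.0276 for ERF3 and 0.0471 for its other probe set (at background), and quantile normalisation 0.0301 for PTI5. Without 1 array, AS17 minus AS5 ran from -0.18 to 0.19 for ERF-H1, -0.16 to 0.0301 for ERF2, -0.74 to 0.46 for ERF3, -0.15 to 0.017 for its other probe set, -0.52 to 0.23 for ERF4, -0.12 to 0.36 for PTI4, -1.35 to 1.12 for PTI5 and -0.26 to 0.62 for PTI6. AS17 minus WT ran from -0.16 to 0.0494 for ERF-H1, -0.32 to 0.79 for ERF3 and -0.37 to 0.51 for PTI6. AS5 minus WT ran from -0.25 to 0.12 for ERF-H1, -0.11 to 0.69 for ERF3 and -0.38 to 0.19 for PTI6, and the mean of both lines from -0.16 to 0.0285 for ERF-H1 and -0.24 to 0.20 for PTI6. The cause of these turns was not tested.

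Over all probe sets, the counts of 38, 135 and 128 that passed in AS5, AS17 and for the mean of both lines became 18 to 38, 20 to 140 and 27 to 110 without 1 array, 51, 315 and 208 without both outlying pools, and 58, 354 and 252 at an adjusted p under 0.10. Leaving out any WT pool, AS5 pool 1 or AS5 pool 2 moved each of these counts by over 1.5 times, as did leaving out AS17 pool 3 in AS17 (20) and for the mean (70). The 2-group fit gave 47 in AS17. Of the calls in AS17, 29 were higher and 106 lower as deposited, and 37 and 77 after median centring. Counting all probe sets of a gene added 1 ripening marker for the mean of both lines, a Psy1 probe set that was higher by 3.82. It passed in neither line alone.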
